A study of Lotus japonicus with 18 samples.

Results

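The core antioxidant enzymes of Lotus japonicus shoots are described here: superoxide dismutases, catalase, the enzymes of the ascorbate-glutathione cycle, glutathione peroxidases, peroxiredoxins, ascorbate oxidases and glutaredoxins. Members were taken by enzyme name: a gene was a member where the Swiss-Prot name in the deposited annotation held superoxide dismutase, catalase, L-ascorbate peroxidase, glutathione peroxidase, glutathione reductase, dehydroascorbate reductase, peroxiredoxin, L-ascorbate oxidase or glutaredoxin. This rule gave 86 of the 33994 entries of the table. No expression value entered its wording, but it was chosen with earlier results of these data known. The names are those of the closest Swiss-Prot protein, most often from another species, and they do not show an enzyme's activity in Lotus.

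Shoot mRNA was measured by poly(A) RNA-seq in plants of 2 Ljmyb36 mutant lines, labelled Lmyb36-1 (line 1) and Lmyb36-2 (line 2) and described as knockouts of a MYB36 transcription factor gene, and in wild type (WT). Each genotype was grown with salt and without it, which gave 6 groups of 3 libraries: line 1 in salt, line 1 in control, line 2 in salt, line 2 in control, WT in salt and WT in control. Salt plants received 50 mM more NaCl every 4 days up to 100 mM and spent 2 days at that level, while control plants received the Hornum nutrient solution alone; all shoots were taken on day 34, 4 h into the light period. The labels call the libraries biological replicates and do not say whether each came from its own pot, so the p-values below measure the spread between these libraries.

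The libraries held between 42125949 and 101713201 reads, recovered from the deposited values. All 20 shoot markers (RuBisCO small subunits and chlorophyll a-b binding proteins) were present, at 46730 to 70970 summed FPKM per library, while leghemoglobins reached at most 0.257 FPKM and Casparian strip membrane proteins at most 0.906 FPKM. Of 9 genes named for pollen, anthers or floral identity 5 reached 1 FPKM, with 21.7 to 35.6 summed FPKM per library. Of 15 genes with seed storage or oil body protein names 3 did, with 8.32 to 14.6 summed FPKM. Their part in the results was not tested. Of the 5 entries named MYB36, none lost its signal in both lines, so the tables do not show which gene the lines carry a mutation in. Libraries of the same group also differed among themselves along 1 component, which held 30.8% of the variance of the deviations from group means. By its sign 9 libraries fell in an upper set (line 1 in salt replicates 1 and 2, line 1 in control 2 and 3, line 2 in salt 2, line 2 in control 3, WT in salt 1, WT in control 2 and 3) and 9 in a lower set. The labels give no batch that matches these sets, and key values are given within each of them below. Each set holds 1 or 2 libraries of a group and was drawn from these same data. Values within a set are therefore no independent replication, and some compare a single library. In bulk tissue, fewer cells of a type and less RNA per cell cannot be told apart.

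Superoxide dismutases turn superoxide, formed above all at the photosynthetic and respiratory electron transport chains, into hydrogen peroxide, which catalase removes in peroxisomes. In chloroplasts and the cytosol ascorbate peroxidases use ascorbate to reduce hydrogen peroxide, and monodehydroascorbate reductase, dehydroascorbate reductase and glutathione reductase return ascorbate and glutathione to their reduced forms. Glutathione peroxidases and peroxiredoxins reduce peroxides with electrons from thioredoxin or glutathione, glutaredoxins reduce or glutathionylate protein thiols or carry iron-sulfur clusters, and ascorbate oxidase is a copper enzyme of the cell wall that oxidises ascorbate outside the cell.

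Members spanned a wide range of levels in shoots. Of the 86, 65 reached at least 1 FPKM (fragments per kilobase of gene length, divided by 1 scaling factor per library) in at least 3 libraries and were tested, and 21 did not; 5 of those 21 were listed at 0 in all 18 libraries. All 9 superoxide dismutase entries (the copper chaperone of the enzyme included), the 1 catalase, the 3 monodehydroascorbate reductases and the 2 glutathione reductases were tested, as were 4 of 5 ascorbate peroxidases, 6 of 7 glutathione peroxidases, 6 of 10 peroxiredoxins, 3 of 5 ascorbate oxidases, 8 of 15 ascorbate oxidase homologs and 23 of 29 glutaredoxins. The wording "dehydroascorbate reductase" matched monodehydroascorbate reductases and no other entry. The highest mean FPKM over all 18 libraries belonged to chloroplast enzymes, peroxiredoxin Q at 528 FPKM and the 2-Cys peroxiredoxin BAS1 at 471 FPKM. Cytosolic ascorbate peroxidase followed at 220 FPKM, chloroplast Cu-Zn superoxide dismutase at 209 FPKM and a phospholipid hydroperoxide glutathione peroxidase at 200 FPKM. No glutaredoxin exceeded 54.9 FPKM.

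**Figure D1:**
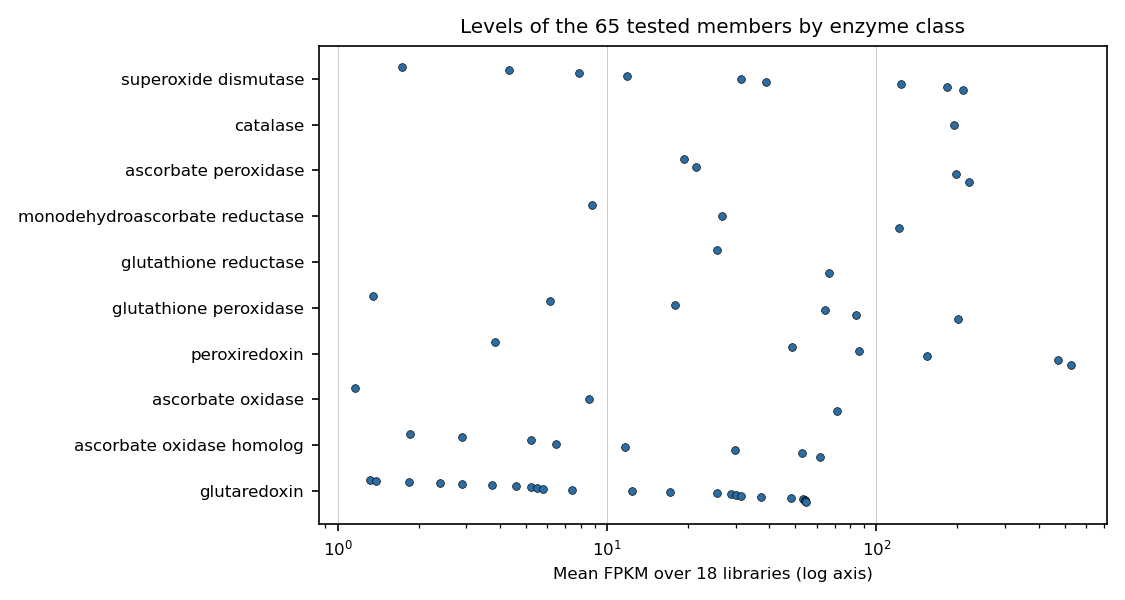
Mean FPKM over 18 libraries (log axis) of each of the 65 tested members, one point per gene, by enzyme class. Peroxiredoxin Q at 528 FPKM stands at the right end, and the glutaredoxins lie at or below 54.9 FPKM.

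Salt changed 8 members in line 1, 16 in line 2 and 11 in WT; whether these counts differ between genotypes was not tested. On the log2(FPKM + 0.5) scale, with limma and a Benjamini-Hochberg adjusted p under 0.05 over 20433 genes, line 1 had 6 members up and 2 down in salt, which was 12.3% of the 65 against a background of 8.61% of all genes tested (4.19% up, 4.42% down). Line 2 had 14 up and 2 down, 24.6% against a background of 8.66% (4.24% up, 4.42% down), and the 14 made up 21.5% of the 65. WT had 6 up and 5 down, 16.9% against a background of 16.3% (6.35% up, 9.91% down). The median change over the 65 members was 0.13 in line 1, 0.11 in line 2 and 0.13 in WT, beside 0.01 over all genes tested in each of these comparisons. The count for line 2 dropped to 8 without line 2 control replicate 1 or 2, to 9 without line 2 control replicate 3 or line 2 salt replicate 2, and to 10 without line 2 salt replicate 3. It was 9 with quantile normalization and 10 with gene-total scaling, and 0 and 3 within the upper and the lower library set. The count for line 1 dropped to 1 without line 1 control replicate 2, to 3 without line 1 salt replicate 1, to 4 without line 1 control replicate 3 and to 5 without line 1 salt replicate 3. The count for WT dropped to 7 without WT salt replicate 1.

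In control solution 8 members were higher and 4 lower in line 1 than in WT, 18.5% of the 65 against a background of 11.7% (7.37% higher, 4.31% lower). There, line 2 had 9 higher and 8 lower than in WT, 26.2% against 12.6% (7.22% higher, 5.35% lower). In salt 7 were higher and 4 lower in line 1 than in WT, 16.9% against 16.0% (11.2% higher, 4.77% lower), and 9 were higher and 5 lower in line 2 than in WT, 21.5% against 25.1% (14.9% higher, 10.2% lower). Both lines were compared with the same WT libraries, so their lists are not independent. In control 7 members were higher in both lines and 3 lower (background 5.50% and 3.10%), in salt 5 and 3 (background 9.44% and 3.29%). Of the 7, LotjaGi1g1v0768700 and LotjaGi1g1v0133700 averaged below the 1 FPKM of the filter in WT control. A total of 3 members were called in the same direction in both lines and both conditions: an ascorbate oxidase and glutathione peroxidase 2 were higher, and a glutaredoxin-S2 was lower (background 3.54% and 0.582%). Single libraries moved these counts. In control the lower count was 1 without WT control replicate 2 or 3, line 1 control replicate 2 or line 2 control replicate 1 or 3, and the higher count 4 without line 1 control replicate 2. In salt it was 3 higher and 1 lower without WT salt replicate 2, 4 and 1 without WT salt replicate 3, and 3 and 2 without line 1 salt replicate 3. In both conditions together it lay between 1 and 4 higher and between 0 and 2 lower when any 1 library was left out, with the lower one gone without any 1 WT library and without 7 of the 12 line libraries. Between line 2 and line 1, limma called 0 members in control, where 6 had an unadjusted p under 0.05, and 0 in salt, where 8 did. Limma-voom on recovered reads called 0 in both, and the background was 0.147% in control (0.0636% higher, 0.0832% lower) and 1.74% in salt (0.920% higher, 0.817% lower).

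The counts of line against WT moved with single libraries and with scaling. For line 1 in control the count was 6 without line 1 control replicate 2 and 7 without WT control replicate 3; for line 2 in control it was 9 without WT control replicate 3 and 10 without any 1 of the 3 line 2 control libraries. In salt it was 7 for line 1 and 9 for line 2 without WT salt replicate 2. Gene-total scaling gave 9 higher and 2 lower for line 2 in control and 4 higher and 5 lower for line 1 in salt; quantile normalization gave 5 higher and 7 lower for line 1 in salt and 6 and 6 for line 2 in salt.

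**Figure D2:**
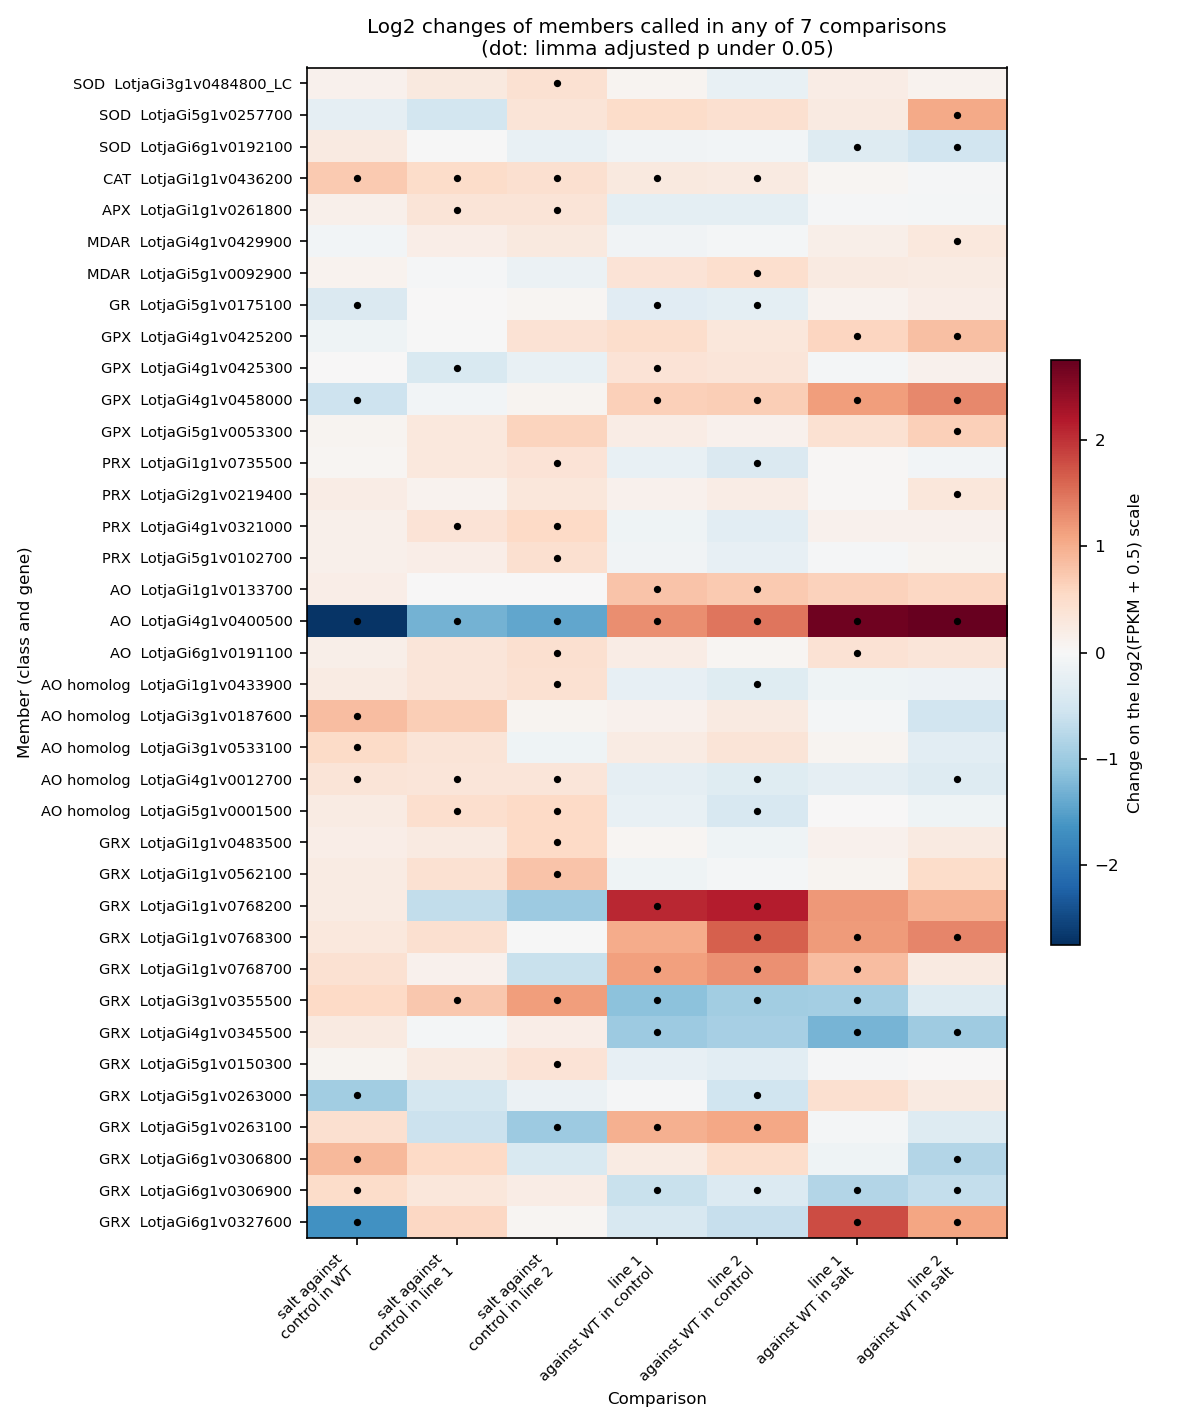
Change on the log2(FPKM + 0.5) scale of the 37 members called in any of 7 comparisons (columns: salt against control in each genotype, then each line against WT in each condition); black dots mark limma adjusted p under 0.05. The ascorbate oxidase LotjaGi4g1v0400500 has the strongest colours, at -2.70 for salt in WT and 2.68 and 2.74 for line 1 and line 2 against WT in salt.

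The largest changes among the members were those of an ascorbate oxidase. LotjaGi4g1v0400500, on chromosome 4 from 77786613 to 77790178 on the plus strand (coordinates of the deposited table; its genome build is not given in the sources used here), is named after cucumber ascorbate oxidase. In salt it had 3.09, 7.87 and 7.91 FPKM in line 1, 5.32, 5.76 and 7.33 FPKM in line 2, and 0.334, 0.471 and 0.687 FPKM in WT. In control it had 12, 20.3 and 13.7 FPKM in line 1, 20.9, 15.1 and 15.8 FPKM in line 2, and 6.83, 4.39 and 6.79 FPKM in WT. All 6 line libraries lay above all 3 WT libraries in both conditions, and within each genotype every salt library lay below every control library.

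In salt LotjaGi4g1v0400500 was higher than in WT by 2.68 ± 0.29 in line 1 (log2 change ± its standard error, SE; adjusted p = 3.88e-06, limma) and by 2.74 ± 0.29 in line 2 (adjusted p = 2.45e-06, limma). In control the difference was 1.27 ± 0.29 in line 1 (adjusted p = 0.00755, limma) and 1.46 ± 0.29 in line 2 (adjusted p = 0.00252, limma). With salt it fell in all 3 genotypes, with changes of -1.29 ± 0.29 in line 1, -1.42 ± 0.29 in line 2 and -2.70 ± 0.29 in WT (adjusted p = 0.00876, 0.00684 and 2.9e-06, limma). These changes understate the ratio, since the WT salt values lie near the pseudocount of 0.5. The salt effect itself was smaller in the lines by 1.40 ± 0.41 and 1.28 ± 0.41, which did not pass the threshold (adjusted p = 0.0664 and 0.0633, limma). Within the upper and the lower library set the difference from WT in salt was 2.71 and 2.97 in line 1 and 2.91 and 2.65 in line 2. Within the lower set alone the line 1 difference in control was 0.77 and the salt change in line 1 -0.57. The calls for line 1 in control and for salt in line 1 were lost without line 1 control replicate 2 (adjusted p = 0.0501 and 0.0548, limma), within ranges over 19 alternatives of 0.00526 to 0.388 and of 0.00572 to 0.47.

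Changes of the other ascorbate oxidases were below 1 on the log2 scale. LotjaGi6g1v0191100, at 71.5 FPKM the most abundant of the class, had 93.0, 87.9 and 82.1 FPKM in line 1, 74.8, 102 and 75.8 FPKM in line 2 and 73.3, 63.5 and 62.3 FPKM in WT in salt. In control its values were 61.8, 75.7 and 70.8 FPKM in line 1, 60.9, 57.0 and 67.0 FPKM in line 2 and 56.4, 67.6 and 55.4 FPKM in WT. All 6 line libraries lay above the 3 WT libraries in salt and overlapped them in control. It was higher in line 1 than in WT in salt by 0.40 ± 0.12 (adjusted p = 0.0362, limma) and rose with salt in line 2 by 0.43 ± 0.12 (adjusted p = 0.0397, limma), but each call was lost in 8 of 19 alternatives. With limma the adjusted p for line 1 lay between 0.0106 and 0.247, lost without line 1 salt replicate 1 (0.107) or 2 (0.0907) or WT salt replicate 2 (0.115) or 3 (0.124). For line 2 it lay between 0.00275 and 0.146, lost without line 2 control replicate 1 (0.11), 2 (0.145) or 3 (0.0647) or line 2 salt replicate 2 (0.146).

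A low member of the class, LotjaGi1g1v0133700, averaged 1.40 ± 0.0566 FPKM in line 1, 1.33 ± 0.0683 FPKM in line 2 and 0.656 ± 0.451 FPKM in WT in control (SD, n = 3 each). Its WT control libraries held 1.18, 0.375 and 0.417 FPKM, of which the first stood close to the lines. The others lay below the 1 FPKM of the filter, near the pseudocount of 0.5. Both lines were above WT in control, by 0.78 ± 0.23 in line 1 and 0.73 ± 0.23 in line 2 (adjusted p = 0.0337 and 0.0459, limma). Leaving out WT control replicate 2 (0.126 and 0.158), WT control replicate 3 (0.153 and 0.181) or any 1 control library of the line compared (0.0689 to 0.0967 for line 1, 0.0993 to 0.129 for line 2) ended these calls. Over all alternatives limma's adjusted p ranged from 0.00234 to 0.899 for line 1 and from 0.00321 to 0.852 for line 2.

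The ascorbate oxidase homologs are multicopper oxidase relatives named after a pollen gene of Brassica, for which the family name does not establish an ascorbate oxidase activity. With salt 2 of 8 rose in line 1, 3 in line 2 and 3 in WT, and none fell (background of higher calls 4.19%, 4.24% and 6.35%). The line 1 count was 0 without line 1 control replicate 2 and 1 without line 1 control replicate 3 or line 1 salt replicate 1 or 3. The line 2 count was 1 without line 2 control replicate 1 or 3 or line 2 salt replicate 2, and the WT count 0 without WT salt replicate 1 and 1 without WT salt replicate 3. Against WT, none of the 8 was called in line 1 in either condition (background 11.7% in control and 16.0% in salt). There, 2 had an unadjusted limma p under 0.05 in control and 2 in salt, and limma-voom called 0. Of the 8, 3 were lower in line 2 in control and 1 in salt (background 5.35% and 10.2%). The count of 3 was 1 without WT control replicate 3 or any 1 line 2 control library. LotjaGi4g1v0012700 averaged 32.0 ± 1.64 FPKM in salt and 25.2 ± 0.90 FPKM in control in line 1, 30.03 ± 3.59 and 23.8 ± 0.935 FPKM in line 2, and 38.4 ± 2.62 and 29.8 ± 1.70 FPKM in WT (SD, n = 3 each). Every salt library lay above every control library in line 1, in line 2 and in WT. LotjaGi5g1v0001500 averaged 72.7 ± 7.52 FPKM in salt and 52.8 ± 4.87 FPKM in control in line 1, 65.8 ± 0.649 and 44.6 ± 1.62 FPKM in line 2, and 71.7 ± 2.88 and 61.5 ± 8.73 FPKM in WT. In line 2 it rose with salt by 0.56 ± 0.10 (adjusted p = 0.0035, limma) and was lower than WT in control by a log2 change of -0.45 ± 0.10 (adjusted p = 0.00689, limma). The latter call was lost in 2 of 19 alternatives, among them gene-total scaling (adjusted p = 0.0728, limma). LotjaGi5g1v0001500 was also called higher with salt in line 1. That call was kept in 14 of 19 alternatives, at changes between 0.37 and 0.53.

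Glutathione peroxidase 2, LotjaGi4g1v0458000 (chromosome 4, 82914739 to 82918613, minus strand), named after the Arabidopsis enzyme that reduces peroxides with thioredoxin, was higher in both lines. Under salt it had 62.9, 78.7 and 74.2 FPKM in line 1, 78.9, 77.5 and 86.2 FPKM in line 2, and 31.7, 30.5 and 33.7 FPKM in WT. In control it had 66.8, 84.5 and 75.6 FPKM in line 1, 77.0, 78.6 and 75.6 FPKM in line 2, and 42.2, 50.1 and 51.6 FPKM in WT. Neither line overlapped WT in either condition, and WT alone had all 3 salt libraries below all 3 control libraries. In salt the difference from WT was 1.15 ± 0.10 in line 1 and 1.33 ± 0.10 in line 2 (adjusted p = 6.45e-07 and 1.05e-07, limma), and in control 0.65 ± 0.10 and 0.68 ± 0.10 (adjusted p = 0.000521 and 0.000287, limma). Within the upper and the lower library set the salt differences were 1.14 and 1.199 in line 1 and 1.28 and 1.35 in line 2. With salt the gene fell in WT, by a change of -0.57 ± 0.10 (adjusted p = 0.000746, limma). The salt effect of line 2 exceeded that of WT by 0.64 ± 0.15 (adjusted p = 0.0109, limma). For line 1 the same difference was 0.50 ± 0.15 and did not pass (adjusted p = 0.074, limma).

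LotjaGi4g1v0425200, the most abundant glutathione peroxidase, is named for the reduction of phospholipid hydroperoxides. In salt it had 181, 193 and 295 FPKM in line 1, 254, 235 and 284 FPKM in line 2 and 123, 149 and 165 FPKM in WT. In control its values were 259, 209 and 196 FPKM in line 1, 195, 207 and 183 FPKM in line 2 and 187, 140 and 147 FPKM in WT. The lines stood clear of WT in salt, and in control line 2 overlapped WT. In salt it was higher by 0.59 ± 0.17 in line 1 and by 0.83 ± 0.17 in line 2 (adjusted p = 0.0254 and 0.00184, limma). The line 1 call was lost in 6 of 19 alternatives (adjusted p between 5.07e-05 and 0.137, limma), among them without line 1 salt replicate 3 (0.124), WT salt replicate 1 (0.09996) or WT salt replicate 2 (0.0588). Its deviation from the group mean averaged -0.15 on the log2 scale in the upper library set and 0.15 in the lower set. Within these sets the difference in salt was 0.60 and 0.91 in line 1 and 0.94 and 0.78 in line 2. Among the 6 tested glutathione peroxidases 2 were higher in line 1 and 3 in line 2 than in WT in salt (background 11.2% and 14.9%), and none was lower (background 4.77% and 10.2%). The line 1 count was 1 without each of the 3 libraries just named.

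LotjaGi1g1v0436200, the single catalase entry, named after soybean catalase-4, rose with salt in every genotype. It had 259, 230 and 226 FPKM in salt and 163, 171 and 170 FPKM in control in line 1. Its line 2 values were 217, 230 and 225 FPKM in salt and 174, 159 and 164 FPKM in control. In WT it had 245, 222 and 221 FPKM in salt and 143, 138 and 138 FPKM in control. Salt and control libraries did not overlap in any genotype. The rise was 0.50 ± 0.08 in line 1, 0.44 ± 0.08 in line 2 and 0.71 ± 0.08 in WT (adjusted p = 0.000405, 0.00255 and 2.62e-06, limma). Within the upper and the lower library set it was 0.51 and 0.47 in line 1, 0.49 and 0.41 in line 2, and 0.82 and 0.63 in WT.

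In control LotjaGi1g1v0436200 was also higher in the lines than in WT, by 0.27 ± 0.08 in line 1 and 0.25 ± 0.08 in line 2 (adjusted p = 0.0271 and 0.0401, limma), and the 6 line libraries lay above the 3 WT libraries. Each of these calls was lost in 9 of 19 alternatives (adjusted p between 0.00914 and 0.541 for line 1 and between 0.00983 and 0.268 for line 2, limma). For line 1 they included leaving out line 1 control replicate 2 or 3 or any 1 of the WT control libraries (0.0515 to 0.0985), and for line 2 leaving out any 1 of the 6 libraries compared (0.0637 to 0.157).

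**Figure D3:**
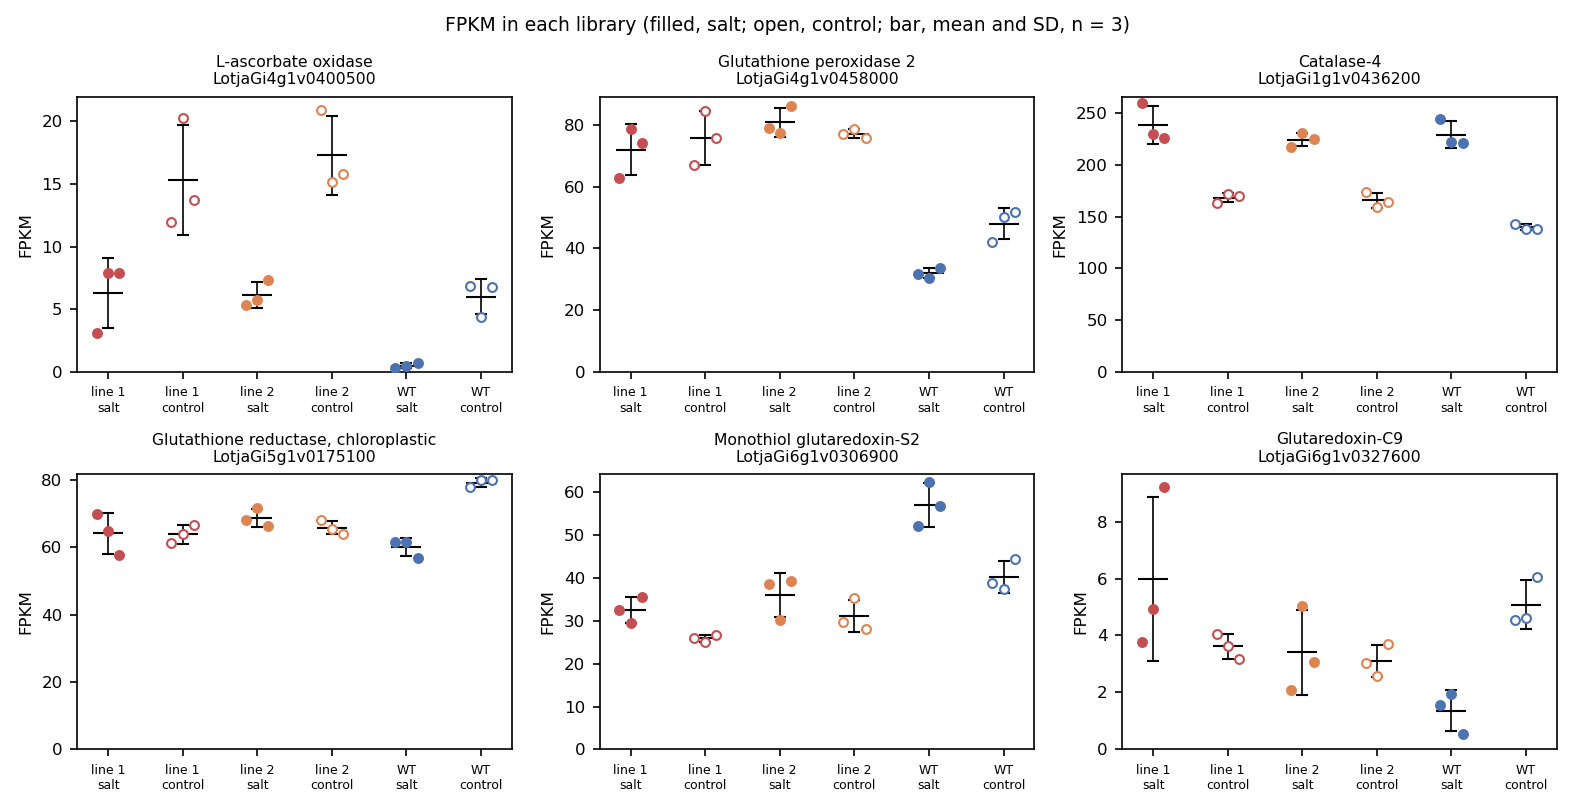
FPKM of 6 members in each library; filled points are salt, open points control, and bars give the mean and SD of 3 libraries, with line 1, line 2 and WT from left to right. Glutathione peroxidase 2 lies at 62.9 FPKM or above in every line library and at 51.6 FPKM or below in every WT library.

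Of 9 superoxide dismutase entries, limma called 0 with salt in line 1 (2 with an unadjusted p under 0.05, 0 by voom), 1 in line 2 and 0 in WT (1 unadjusted, 0 by voom), beside a background of 8.61%, 8.66% and 16.3% of all genes. Against WT it called 0 in control in line 1 (2 unadjusted, 0 by voom) and 0 in line 2 (1 unadjusted, 0 by voom), beside 11.7% and 12.6%. In salt it called 1 lower in line 1, and 1 higher and 1 lower in line 2, beside 16.0% and 25.1%. Leaving out 1 library moved the higher and the lower counts by at most 1.

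The chloroplast Cu-Zn superoxide dismutase LotjaGi3g1v0484800_LC had 262, 217 and 257 FPKM in salt and 203, 201 and 207 FPKM in control in line 1. For line 2 the values were 207, 236 and 241 FPKM in salt and 163, 166 and 177 FPKM in control. In WT it had 222, 202 and 212 FPKM in salt and 191, 206 and 188 FPKM in control. Salt and control did not overlap in either line and overlapped in WT. The change was 0.26 ± 0.09 in line 1, 0.43 ± 0.09 in line 2 and 0.12 ± 0.09 in WT, of which the line 2 value passed (adjusted p = 0.0755, 0.00703 and 0.421, limma). The difference between the salt effects of line 2 and WT, 0.31 ± 0.12, did not (adjusted p = 0.15, limma).

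The iron superoxide dismutase 3 of chloroplasts, LotjaGi6g1v0192100, which acts at the plastid nucleoid in Arabidopsis, had 12.3, 11.1 and 10.8 FPKM in line 1, 9.48, 9.85 and 10.8 FPKM in line 2 and 14.7, 14.3 and 14.8 FPKM in WT in salt. In control it averaged 11.4 ± 0.341 FPKM in line 1, 11.6 ± 1.13 FPKM in line 2 and 12.2 ± 1.54 FPKM in WT (SD, n = 3 each). In salt the lines lay below WT without overlap, with changes of -0.34 ± 0.10 in line 1 and -0.52 ± 0.10 in line 2 (adjusted p = 0.0291 and 0.00134, limma). The line 1 call was lost in 8 of 19 alternatives (adjusted p between 0.00791 and 0.207, limma), among them without line 1 salt replicate 2 (0.0925) or 3 (0.0939) or any 1 WT salt library (0.0624 to 0.0776).

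Among the enzymes that spend and restore ascorbate, limma called 1 of 4 ascorbate peroxidases, with salt in line 1 and in line 2 (background of higher calls 4.19% and 4.24%). Against WT it called 0 in control (background 11.7% in line 1 and 12.6% in line 2). There, 2 in line 1 and 3 in line 2 had an unadjusted p under 0.05, and limma-voom on recovered reads called 2 and 1. With limma both lines had 1 lower call there without WT control replicate 1 and 1 higher call without WT control replicate 2. In salt limma called 0 against WT in either line (background 16.0% and 25.1%). Leaving out 1 library gave at most 1 higher call in line 1 and 1 lower call in line 2. The thylakoid-bound LotjaGi1g1v0261800, named after Arabidopsis ascorbate peroxidase T, had 25.7, 22.5 and 21.8 FPKM in salt and 17.4, 17.9 and 18.7 FPKM in control in line 1. Line 2 had 21.9, 23.4 and 24.2 FPKM in salt and 18.1, 18.3 and 17.9 FPKM in control, and in WT 24.6, 22.9 and 24.2 FPKM in salt and 19.6, 23.5 and 22.4 FPKM in control. Salt libraries stood above control libraries in both lines and overlapped them in WT. It rose by 0.36 ± 0.09 in line 1 and by 0.35 ± 0.09 in line 2 (adjusted p = 0.0137 and 0.0201, limma). The line 1 call was lost without line 1 control replicate 2 (0.0506) or line 1 salt replicate 1 (0.0814), and the line 2 call without any 1 line 2 control library or line 2 salt replicate 2 or 3 (0.0523 to 0.0756). Over 19 alternatives limma's adjusted p lay between 0.00472 and 0.393 and between 0.00744 and 0.18.

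The most abundant ascorbate peroxidase, the cytosolic LotjaGi2g1v0364900, varied widely within groups. Under salt it had 266, 265 and 180 FPKM in line 1, 184, 246 and 210 FPKM in line 2 and 211, 164 and 166 FPKM in WT. In control it had 204, 295 and 291 FPKM in line 1, 242, 240 and 264 FPKM in line 2 and 150, 214 and 166 FPKM in WT. Line 2 stood above WT in control and overlapped it in salt, and line 1 overlapped WT in both. The difference from WT in control was 0.57 ± 0.18 in line 1 and 0.51 ± 0.18 in line 2, and neither passed (adjusted p = 0.0517 and 0.0800, limma). Its deviation from the group mean averaged 0.16 on the log2 scale in the upper library set and -0.16 in the lower set; the part of the sets in its differences was not tested.

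Monodehydroascorbate reductase LotjaGi5g1v0092900, which returns the ascorbate radical to ascorbate, had 111, 135 and 145 FPKM in line 1, 133, 140 and 140 FPKM in line 2 and 85.8, 116 and 99.5 FPKM in WT in control. In salt it had 130, 132 and 119 FPKM in line 1, 115, 137 and 120 FPKM in line 2 and 120, 95.5 and 105 FPKM in WT. Line 2 stood above WT in control, and the other pairs overlapped. It was higher in line 2 in control by 0.46 ± 0.12 (adjusted p = 0.0176, limma), a call lost in 5 of 19 alternatives (adjusted p between 0.000169 and 0.122, limma), among them without line 2 control replicate 2 (0.0619) or 3 (0.0614) or WT control replicate 1 (0.0972) or 3 (0.0548). The chloroplast or mitochondrial LotjaGi4g1v0429900 averaged 10.2 ± 1.65 FPKM in line 2 and 8.16 ± 0.194 FPKM in WT in salt (SD, n = 3 each). It was higher there by 0.30 ± 0.10 (adjusted p = 0.0424, limma), a call lost in 10 of 19 alternatives (adjusted p between 0.0197 and 0.597, limma), among them without line 2 salt replicate 1 (0.19) or any 1 WT salt library (0.075 to 0.104).

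Chloroplast glutathione reductase LotjaGi5g1v0175100 (chromosome 5, 44737578 to 44742196, minus strand), which regenerates glutathione with NADPH, fell with salt in WT. It had 69.9, 64.9 and 57.8 FPKM in salt and 61.2, 63.8 and 66.7 FPKM in control in line 1. Its line 2 values were 68.1, 71.6 and 66.2 FPKM in salt and 68.0, 65.5 and 64.1 FPKM in control. In WT it had 61.7, 61.5 and 57.0 FPKM in salt and 77.8, 79.9 and 79.9 FPKM in control. The WT control libraries stood above all the others, and salt and control overlapped in both lines. The WT change was -0.40 ± 0.08 (adjusted p = 0.00132, limma), and in control line 1 and line 2 were lower than WT by changes of -0.31 ± 0.08 and -0.26 ± 0.08 (adjusted p = 0.0151 and 0.0329, limma).

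The salt effect of LotjaGi5g1v0175100 in line 2 exceeded that in WT by 0.46 ± 0.11 (adjusted p = 0.0139, limma), and in line 1 by 0.40 ± 0.11 (adjusted p = 0.0484, limma). The line 1 value was lost in 19 of 25 alternatives (adjusted p between 0.0137 and 0.476, limma), among them without any 1 of the libraries compared other than line 1 salt replicate 3 (0.0634 to 0.119). The call of line 2 against WT in control was lost without any 1 of the 6 libraries compared (0.0612 to 0.118) and that of line 1 without line 1 control replicate 2 (0.0526) or WT control replicate 3 (0.0563). Over 19 alternatives limma's adjusted p lay between 0.0185 and 0.304 and between 0.0039 and 0.305. The cytosolic glutathione reductase LotjaGi2g1v0119800 had between 20.1 and 27.9 FPKM in all 18 libraries and was called in no comparison.

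Of 6 tested peroxiredoxins, 1 rose with salt in line 1, 3 in line 2 and 0 in WT, where none had an unadjusted limma p under 0.05 and voom called 0 (background of higher calls 4.19%, 4.24% and 6.35%). Peroxiredoxin Q, LotjaGi4g1v0321000, a chloroplast enzyme reduced by thioredoxin, had 620, 546 and 659 FPKM in salt and 517, 443 and 447 FPKM in control in line 1. For line 2 the values were 540, 622 and 671 FPKM in salt and 416, 430 and 397 FPKM in control, and in WT 520, 561 and 597 FPKM in salt and 529, 474 and 524 FPKM in control. The line libraries separated by treatment and the WT libraries did not. The change was 0.37 ± 0.10 in line 1, 0.56 ± 0.10 in line 2 and 0.13 ± 0.10 in WT (adjusted p = 0.0312, 0.00392 and 0.465, limma). The line 1 call was lost in 10 of 19 alternatives (adjusted p between 0.00729 and 0.347, limma), among them without line 1 control replicate 2 or 3 or line 1 salt replicate 1 or 3 (0.0941 to 0.123).

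The 2-Cys peroxiredoxins of chloroplasts were called higher with salt in line 2 and in neither line 1 nor WT. With 1 library left out, between 0 and 2 peroxiredoxins were called higher with salt in line 1. Whether the salt effects of line 1 and line 2 differ was not tested. LotjaGi5g1v0102700 averaged 175 ± 17.1 FPKM in salt and 129 ± 1.53 FPKM in control in line 2, and 166 ± 3.41 FPKM in salt and 150 ± 8.20 FPKM in control in WT (SD, n = 3 each). It rose in line 2 by 0.43 ± 0.08 (adjusted p = 0.00379, limma). LotjaGi1g1v0735500 averaged 492 ± 53.6 FPKM in salt and 377 ± 7.53 FPKM in control in line 2, and 513 ± 18.9 and 493 ± 18.8 FPKM in WT. It rose in line 2 by 0.38 ± 0.09 (adjusted p = 0.0152, limma) and was lower in line 2 than in WT in control by a change of -0.39 ± 0.09 (adjusted p = 0.00764, limma). Its rise was lost in 8 of 19 alternatives (adjusted p between 0.00526 and 0.197, limma), among them without line 2 control replicate 1 or 2 or line 2 salt replicate 2 or 3 (0.0522 to 0.0644). The salt effects of line 2 and WT differed by 0.42 ± 0.15, 0.29 ± 0.11 and 0.32 ± 0.13 for LotjaGi4g1v0321000, LotjaGi5g1v0102700 and LotjaGi1g1v0735500, and none of these passed (adjusted p = 0.0893, 0.14 and 0.136, limma).

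Of the glutaredoxins 23 were tested. Several carry names of the CC type, a class of land plants whose Arabidopsis members (ROXY proteins) bind TGA transcription factors. Against WT in control, limma called 3 higher and 3 lower in line 1 (background 7.37% and 4.31%) and 4 higher and 3 lower in line 2 (background 7.22% and 5.35%). In salt it called 3 higher and 3 lower in line 1 (background 11.2% and 4.77%) and 2 higher and 3 lower in line 2 (background 14.9% and 10.2%). The lower count of line 2 in control was 1 without any 1 WT control library or line 2 control replicate 1. In salt the higher count of line 1 was 1 without WT salt replicate 2 or line 1 salt replicate 3. That of line 2 was 1 without WT salt replicate 2 or line 2 salt replicate 2, and its lower count was 1 without WT salt replicate 3 or line 2 salt replicate 1. Salt against control gave 1 up and 0 down in line 1 (background 4.19% and 4.42%). It gave 4 up and 1 down in line 2 (4.24% and 4.42%) and 2 up and 2 down in WT (6.35% and 9.91%). With 1 compared library left out, the up counts lay between 0 and 1, 1 and 2, and 1 and 3.

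Several glutaredoxin genes lie side by side. On chromosome 1, between 134092057 and 134113260, 4 of them stand within 21204 bases, and neighbours differed in level and in change. LotjaGi1g1v0768200, named glutaredoxin-S6, had 7.63, 8.02 and 6.62 FPKM in line 1, 7.89, 6.44 and 9.71 FPKM in line 2 and 1.55, 2.21 and 0.67 FPKM in WT in control. Under salt it had 3.29, 4.62 and 5.81 FPKM in line 1, 3.03, 4.67 and 3.58 FPKM in line 2 and 0.668, 1.09 and 5.03 FPKM in WT. The control libraries of the lines stood clear of WT, while in salt WT replicate 3 lay within the range of line 1 and above that of line 2. The gene was higher in control by 2.08 ± 0.42 in line 1 and 2.17 ± 0.42 in line 2 (adjusted p = 0.00362 and 0.00242, limma), and the salt differences of 1.19 ± 0.42 and 0.95 ± 0.42 did not pass (adjusted p = 0.0675 and 0.113, limma).

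Its neighbour LotjaGi1g1v0768300, also named glutaredoxin-S6, had 7.13, 5.50 and 6.84 FPKM in line 1, 6.35, 7.64 and 8.12 FPKM in line 2 and 2.80, 1.99 and 3.07 FPKM in WT in salt. The lines lay above WT without overlap. It was higher there by 1.17 ± 0.36 in line 1 and 1.35 ± 0.36 in line 2 (adjusted p = 0.0365 and 0.012, limma), and in line 2 in control by 1.64 ± 0.36 (adjusted p = 0.00611, limma). In control this line 2 difference was 2.05 within the upper library set and 0.54 within the lower. The upper set held 1 line 2 control library and the lower set 1 WT control library. With only the compared groups the line 2 difference in control was not called (adjusted p = 0.0595, limma). The line 1 call in salt was lost in 11 of 19 alternatives (adjusted p between 0.00578 and 0.133, limma), among them without any 1 of the 6 libraries compared (0.0588 to 0.133), and the line 2 call in salt without WT salt replicate 2 (0.0539, in a range of 0.0013 to 0.0805). The 2 genes share a name, and how reads from near-identical stretches were assigned is not given in the sources used here.

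LotjaGi1g1v0768700, named glutaredoxin-C11, averaged 1.66 ± 0.0862 FPKM in line 1, 1.92 ± 0.639 FPKM in line 2 and 0.488 ± 0.0666 FPKM in WT in control (SD, n = 3 each). It was higher there by 1.13 ± 0.27 and 1.26 ± 0.27 (adjusted p = 0.0102 and 0.00428, limma). The WT control mean lay below the 1 FPKM of the filter and near the pseudocount of 0.5, while the line means passed it. Limma-voom on recovered reads did not call the gene in line 1 there (adjusted p = 0.0827). In salt it was also called in line 1, by 0.84 ± 0.27 (adjusted p = 0.0395, limma), but not without line 1 salt replicate 1 (0.113) or 3 (0.16) or WT salt replicate 2 (0.173) or 3 (0.106), in a range over 18 alternatives of 0.00905 to 0.778. This difference was 0.17 within the upper library set and 1.49 within the lower. The remaining gene of the cluster, LotjaGi1g1v0768600 (glutaredoxin-C13), was the most abundant glutaredoxin. It had 54.3, 57.0 and 62.8 FPKM in line 1, 65.3, 53.4 and 63.9 FPKM in line 2 and 51.7, 46.3 and 53.9 FPKM in WT in salt. Its control values were 57.2, 61.8 and 57.4 FPKM in line 1, 44.2, 43.2 and 54.9 FPKM in line 2, and 57.5, 59.6 and 44.4 FPKM in WT. Both lines overlapped WT in control, and the gene was called in no comparison.

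On chromosome 5, LotjaGi5g1v0263000 (glutaredoxin-S11) and LotjaGi5g1v0263100 (glutaredoxin-C11) lie between 57287366 and 57294841. LotjaGi5g1v0263000 had 19.7, 22.1 and 30.2 FPKM in salt and 37.2, 33.4 and 29.7 FPKM in control in line 1. Line 2 had 19.1, 21.1 and 21.7 FPKM in salt and 24.3, 18.8 and 27.4 FPKM in control, and in WT 16.0, 16.4 and 19.6 FPKM in salt and 34.2, 35.6 and 32.7 FPKM in control. WT was the one genotype in which salt and control did not overlap, and the gene fell there by a change of -0.96 ± 0.15 (adjusted p = 0.000178, limma). In control it was lower in line 2 than in WT by a change of -0.55 ± 0.15 (adjusted p = 0.025, limma), lost in 8 of 19 alternatives (adjusted p between 0.0126 and 0.19, limma), among them without line 2 control replicate 1 (0.0534) or 2 (0.141) or any 1 WT control library (0.0545 to 0.0681).

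LotjaGi5g1v0263100 had 8.14, 7.93 and 7.69 FPKM in line 1, 8, 9.89 and 7.59 FPKM in line 2 and 3.80, 3.88 and 3.58 FPKM in WT in control. In salt it had 4.31, 4.83 and 6.22 FPKM in line 1, 5.74, 5.19 and 2.02 FPKM in line 2 and 5.32, 4.73 and 5.70 FPKM in WT. The lines stood clear above WT in control and overlapped it in salt. In control it was higher by 0.98 ± 0.24 in line 1 and 1.07 ± 0.24 in line 2 (adjusted p = 0.0126 and 0.00677, limma). With salt it fell in line 2 by a change of -0.999 ± 0.24 (limma adjusted p = 0.0179; 0.0784 without line 2 control replicate 2, in a range of 0.00827 to 0.156), with a change of -0.59 without line 2 salt replicate 3. The salt effect of line 2 was below that of WT by a log2 difference of -1.43 ± 0.34 (adjusted p = 0.013, limma).

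On chromosome 6, between 62403077 and 62411203, lies the member that was lower in both lines in both conditions. LotjaGi6g1v0306900 (glutaredoxin-S2) had 32.5, 29.6 and 35.7 FPKM in line 1, 38.5, 30.2 and 39.3 FPKM in line 2 and 52.1, 62.3 and 56.8 FPKM in WT in salt. In control its values were 25.9, 25.2 and 26.8 FPKM in line 1, 29.8, 35.3 and 28.1 FPKM in line 2 and 38.9, 37.4 and 44.3 FPKM in WT. No line library reached the lowest WT library of its condition. The changes were -0.80 ± 0.12 in line 1 and -0.66 ± 0.12 in line 2 in salt (adjusted p = 0.000117 and 0.000516, limma) and -0.62 ± 0.12 and -0.37 ± 0.12 in control (adjusted p = 0.00204 and 0.0493, limma). Within the upper and the lower library set the salt changes were -0.74 and -0.73 in line 1 and -0.78 and -0.61 in line 2. The line 2 call in control was lost in 14 of 19 alternatives (adjusted p between 0.00753 and 0.352, limma), among them without line 2 control replicate 1 (0.147) or 3 (0.197) or any 1 WT control library (0.0524 to 0.196). With salt the gene rose in WT by 0.50 ± 0.12 (adjusted p = 0.00582, limma).

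Other entries named glutaredoxin-S2 also stood lower in the lines. LotjaGi3g1v0355500 had 3.52, 1.84 and 2.51 FPKM in line 1, 3.12, 3.13 and 2.53 FPKM in line 2 and 8.42, 5.08 and 5.36 FPKM in WT in control, without overlap. Its changes there were -1.12 ± 0.21 and -0.96 ± 0.21 (adjusted p = 0.00188 and 0.00576, limma), and in salt -0.93 ± 0.21 in line 1 (adjusted p = 0.00536, limma) and -0.36 ± 0.21 in line 2 (adjusted p = 0.235, limma). The gene was also called higher with salt than in control in both lines. In line 2 this call was kept in 18 of 19 alternatives, at changes between 1.05 and 1.26. In line 1 it was kept in 10 of 19, at changes between 0.33 and 0.95. LotjaGi4g1v0345500 had 5.82, 8.08 and 10.8 FPKM in line 1, 10.3, 7.15 and 13.5 FPKM in line 2 and 15, 18.5 and 29.3 FPKM in WT in salt, again without overlap. Its changes were -1.28 ± 0.31 and -0.98 ± 0.31 (adjusted p = 0.00785 and 0.0268, limma), of which the line 2 call was lost in 6 of 19 alternatives (adjusted p between 0.00483 and 0.132, limma), among them without line 2 salt replicate 1 (0.0528) or 2 (0.119) or WT salt replicate 2 (0.0502) or 3 (0.132). Another entry of that name, LotjaGi1g1v0562100, was called against WT in neither line.

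**Figure D4:**
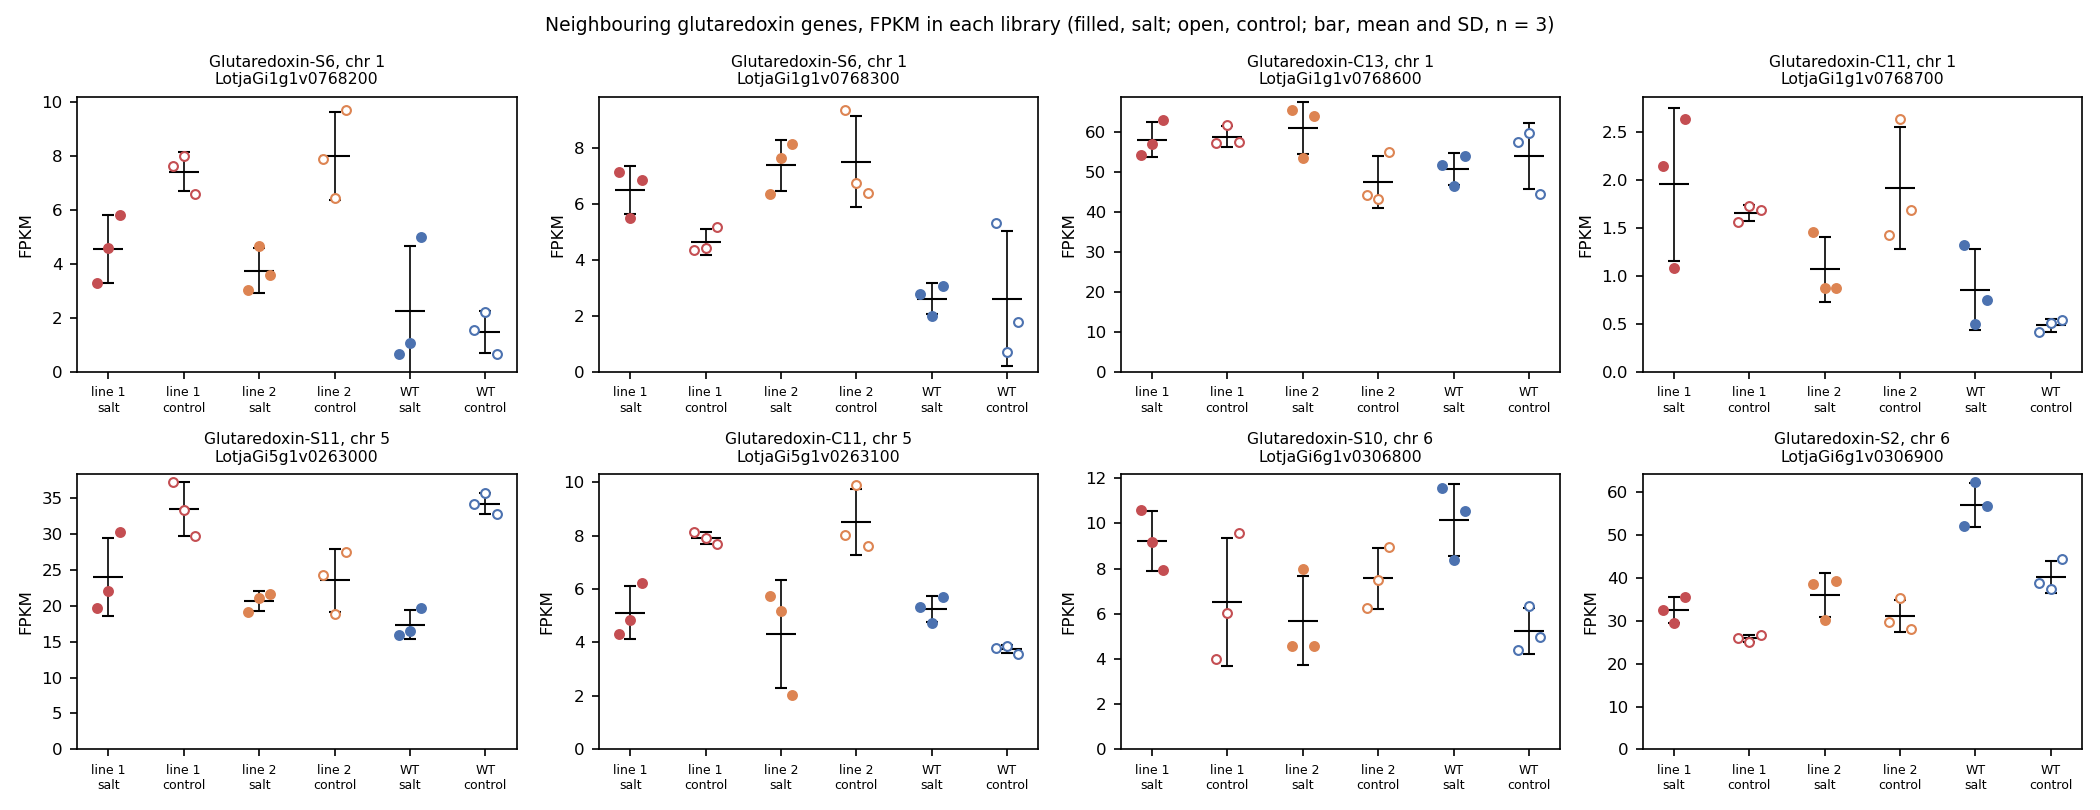
FPKM in each library of 8 glutaredoxin genes that lie next to each other on chromosomes 1, 5 and 6; filled points are salt, open points control, and bars give the mean and SD of 3 libraries, with line 1, line 2 and WT from left to right. LotjaGi1g1v0768600 stays between 43.2 and 65.3 FPKM in all libraries, while its neighbours on chromosome 1 lie below 10 FPKM.

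Glutaredoxin-C9, LotjaGi6g1v0327600, named after the Arabidopsis protein that links salicylic acid signalling with TGA factors, responded to salt differently in WT and in the lines. It had 3.77, 4.93 and 9.22 FPKM in salt and 4.06, 3.63 and 3.16 FPKM in control in line 1. Its line 2 values were 2.10, 5.04 and 3.07 FPKM in salt and 3.02, 2.58 and 3.71 FPKM in control, and in WT 1.56, 1.96 and 0.553 FPKM in salt and 4.54, 4.62 and 6.06 FPKM in control. Salt and control separated in WT and overlapped in both lines. In WT it fell by a change of -1.66 ± 0.33 (adjusted p = 0.00143, limma), and the salt effect of line 1 exceeded that of WT by 2.23 ± 0.46 (adjusted p = 0.00782, limma) and that of line 2 by 1.72 ± 0.46 (adjusted p = 0.0271, limma). In salt its level exceeded that of WT by 1.80 ± 0.33 in line 1 and 1.09 ± 0.33 in line 2 (adjusted p = 0.000907 and 0.0214, limma).

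For LotjaGi6g1v0327600 the difference in salt effect within the upper and the lower library set was 1.80 and 2.74 in line 1 and 1.89 and 1.54 in line 2. The line 2 difference was lost in 7 of 24 alternatives (adjusted p between 0.0148 and 0.241, limma), among them without line 2 control replicate 1 (0.0604) or 2 (0.0717), line 2 salt replicate 2 (0.0699), WT control replicate 3 (0.0709) or WT salt replicate 3 (0.0631). The call of line 2 against WT in salt was lost without line 2 salt replicate 2 (0.106) or WT salt replicate 3 (0.118), in a range over 18 alternatives of 0.0107 to 0.166.

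Across all members, the salt effect differed from that of WT for 2 of 65 in line 1, both more positive in the line (3.08% against a background of 4.27%, 3.61% more positive and 0.661% more negative). It differed for 6 in line 2, 4 more positive and 2 more negative (9.23% against a background of 8.61%, 5.87% more positive and 2.74% more negative). Both shares lie near the background. The line 1 count was 1 without WT control replicate 3, any 1 WT salt library, line 1 control replicate 1 or 3 or line 1 salt replicate 2, and the line 2 count 3 without line 2 control replicate 2. With quantile normalization or gene-total scaling the line 2 count was 3 more positive and 3 more negative.

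Other genes of redox metabolism were read from lists of enzyme names. The copper handling list held copper transporters, pumps and chaperones, and also electron carriers that bind copper (plastocyanin and blue copper proteins). It had 22 tested genes, and its counts are not counts of copper supply genes alone. In both lines against WT 5 were higher and 1 lower in control, 7 higher and 1 lower in salt, and 5 higher and 1 lower in both conditions (background 5.50% and 3.10%, 9.44% and 3.29%, and 3.54% and 0.582%). With any 1 library left out the higher counts lay between 3 and 6, 4 and 7, and 2 and 5; they were lowest without line 2 control replicate 3, line 1 salt replicate 2 and line 2 control replicate 3. The higher genes included blue copper proteins, small electron carriers of the cell wall: LotjaGi4g1v0272800 was higher in salt by 3.28 in line 1 and 3.21 in line 2 and had a salt effect of -3.02 in WT on the log2 scale (adjusted p = 1.45e-08, 1.50e-08 and 2.84e-08, limma). The copper chaperones CCH (LotjaGi5g1v0073000) and ATX1 (LotjaGi5g1v0266900) were higher in salt by 0.30 and 0.27 in line 1 and by 0.40 and 0.34 in line 2 (adjusted p = 0.0359, 0.0466, 0.00402 and 0.00972, limma). The chloroplast copper pump PAA1 (LotjaGi4g1v0034800) was lower in both lines in salt, with changes of -0.35 and -0.30 (adjusted p = 0.00458 and 0.00912, limma).

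Alternative electron sinks, oxidases and dehydrogenases that let electrons bypass steps of respiration or photosynthesis, had 13 tested genes, of which 3 were higher in both lines in control and 5 in salt (background 5.50% and 9.44%), with none lower in both (background 3.10% and 3.29%). Without line 1 salt replicate 1, 1 was lower in both in salt. The mitochondrial alternative oxidase LotjaGi2g1v0344500 was higher in control by 2.71 in line 1 and 2.71 in line 2 (adjusted p = 6.80e-07 and 5.14e-07, limma). The plastid terminal oxidase LotjaGi6g1v0288900 had a salt effect of -1.71 in WT, and this effect was less negative by 0.80 in line 1 and by 1.58 in line 2 (adjusted p = 2.12e-07, 0.0341 and 9.06e-05, limma).

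Sources of superoxide and hydrogen peroxide had 28 tested genes. In both lines against WT 3 were higher and 1 lower in control (background 5.50% and 3.10%), and 5 higher and 3 lower in salt (background 9.44% and 3.29%). The 3 higher in control became 1 without line 1 control replicate 1 or 2 or line 2 control replicate 1 or 3, and the 3 lower in salt became 1 without WT salt replicate 2 or line 1 salt replicate 3. Under salt line 1 had 0 rising and 2 falling genes by limma (background 4.19% and 4.42%). There were 1 and 0 for line 2 (4.24% and 4.42%) and 3 and 7 for WT (6.35% and 9.91%). The 1 up in line 2 was lost without any 1 line 2 control library, and the 3 up in WT became 0 without WT control replicate 2 and 1 without WT control replicate 1 or 3 or WT salt replicate 1 or 3. The NADPH oxidase LotjaGi1g1v0771200 (respiratory burst oxidase homolog B) was lower than in WT in control, with changes of -0.96 in line 1 and -0.76 in line 2, and higher in salt, by 1.06 in line 1 and 1.32 in line 2 (adjusted p = 0.00104, 0.0056, 0.000246 and 1.81e-05, limma). With salt its change in WT was -2.04 (adjusted p = 1.61e-07, limma).

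Ascorbate synthesis had 15 tested genes, of which 0 were called in both lines in control (background 5.50% higher), where 5 were higher in line 1 and 2 in line 2 (7.37% and 7.22%). In salt 3 were higher in both lines (9.44%): inositol oxygenase LotjaGi4g1v0443000, a phosphomannomutase and an inositol-phosphate phosphatase. The 5 became 2 or 3 without any 1 WT control library or line 1 control replicate 2 or 3, and the 3 became 1 without WT salt replicate 1 or line 2 salt replicate 3. Glutathione synthesis and turnover had 9, of which 1 was higher and 1 lower in both lines in control (background 5.50% and 3.10%). The lower one was the chloroplast glutathione synthetase LotjaGi1g1v0775500_LC, with changes of -0.37 in line 1 and -0.43 in line 2 (adjusted p = 0.0495 and 0.02, limma). It was not called in both lines without WT control replicate 1 or 3, line 1 control replicate 2 or 3 or any 1 line 2 control library. In the thioredoxin system, which supplies peroxiredoxins and glutathione peroxidases with electrons, 53 genes were tested; 6 were higher and 1 lower in both lines in control (background 5.50% and 3.10%) and 3 higher and 1 lower in salt (background 9.44% and 3.29%). With any 1 library left out the counts lay between 5 and 7 higher and 0 and 2 lower in control, and between 2 and 4 higher and 0 and 2 lower in salt.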

How the data were processed

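Poly(A) RNA from shoots of 2 Ljmyb36 lines and WT, each with and without NaCl, was sequenced in 18 libraries, 3 per group. The authors deposited 1 table of FPKM values per gene, with annotation. Per the submitters' processing notes, fastp, featureCounts 1.5.0-p3 and DESeq2 1.20.0 were used; aligner, build and strandedness were not given in these sources. FPKM times gene length came in whole steps for 100% of the values (tolerance 0.05 reads), which gave back the reads per gene, 42125949 to 101713201 per library. The scaling in the FPKM values was 0.954 to 1.09 times these totals and followed size factors (median of ratios) computed from these reads. They show counting precision, and the gene-level spread between libraries exceeded it: the closest 2 replicates differed by a median chi-square of 2.10.

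Genes with at least 1 FPKM in at least 3 libraries (20433 of 33994) were tested as log2(FPKM + 0.5) with limma 3.58.1 in R 4.3.3, 1 fit over the 6 groups with a trended variance and 12 residual degrees of freedom, 11 contrasts, and Benjamini-Hochberg adjustment over all 20433 genes. Fold changes on this scale understate low genes. The fit was run on simulated data with a log2 change of 1 in 200 of 20433 genes for salt in WT. It recovered 92.5% of them, with 11 false calls and a median estimate of 0.894 for the raised genes. Smaller changes, such as those of many calls here, were not covered. Members and lists were chosen with earlier results of these data known. By rule, values are given per class for the member with the highest mean and the 2 with the smallest adjusted p. Any member called in both lines in both conditions was added. These are per-library values for most, and group means with SD or a range for the others, some in part of the groups. Other genes printed with values were chosen after their values were seen. Of 27 same-numbered pairs of libraries 10 correlated above 0.1 in their deviations (-0.31 to 0.48), not every pair, so no pairing was used. Alternatives were other pseudocounts, filters and scalings, limma-voom on the recovered reads, robust variances, only the compared groups, a library-set term or each set alone, a replicate block, and each library left out.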

Additional observations from a re-analysis of the deposited data

Results flagged for a closer look

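A total of 6 members had a salt effect that differed between a line and WT by the limma test of that difference, with 8 such values in all, given here as log2 differences of line minus WT. Their share of the 65 tested lies near the background. For glutaredoxin-C9 (LotjaGi6g1v0327600) the difference was 2.23 in line 1 and 1.72 in line 2, and for chloroplast glutathione reductase (LotjaGi5g1v0175100) 0.40 in line 1 and 0.46 in line 2; the line 1 value of the reductase was lost in 19 of 25 alternatives. For glutathione peroxidase 2 (LotjaGi4g1v0458000) it was 0.64 in line 2.

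Neighbouring glutaredoxins on chromosome 5 differed in opposite directions in line 2. For LotjaGi5g1v0263000 the difference was 0.79 (adjusted p = 0.0277, limma), lost in 11 of 25 alternatives (adjusted p between 0.0156 and 0.133, limma), among them without line 2 control replicate 2 (0.081), line 2 salt replicate 2 (0.0552) or 3 (0.0639), WT control replicate 1 (0.0517) or 2 (0.0597), or WT salt replicate 1 (0.0637) or 2 (0.0678). For LotjaGi5g1v0263100 it was -1.43.

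For LotjaGi6g1v0306800, named glutaredoxin-S10, the line 2 difference was -1.31 (adjusted p = 0.0319, limma). It had 10.6, 9.19 and 7.94 FPKM in line 1, 4.58, 7.98 and 4.55 FPKM in line 2 and 11.5, 8.40 and 10.5 FPKM in WT in salt, and 3.99, 6.03 and 9.59 FPKM, 6.27, 7.48 and 8.95 FPKM, and 4.39, 6.35 and 4.98 FPKM in these genotypes in control. Salt and control separated in WT and overlapped in both lines. The difference was lost in 10 of 25 alternatives (adjusted p between 0.000654 and 0.200, limma), among them without line 2 control replicate 2 or 3, line 2 salt replicate 1 or 3, WT control replicate 1 or 3, or WT salt replicate 1 or 3 (0.0634 to 0.0838).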

How the results depend on the processing

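Among 97 calls of a member in a comparison, 12 passed the threshold in all alternatives run, and 1419 of 1878 checks kept the call with its sign; 0 changed sign. Leaving out 1 library moved the count of called members between 1 and 10 for salt in line 1 (8 with all libraries), 8 and 14 for salt in line 2 (16), 7 and 12 for salt in WT (11), 6 and 13 for line 1 against WT in control (12), 9 and 14 for line 2 in control (17), 7 and 10 for line 1 in salt (11), 9 and 12 for line 2 in salt (14), 1 and 3 for the salt effect of line 1 minus that of WT (2), and 3 and 7 for line 2 (6). Gene-total scaling gave 3 for salt in line 1, 10 for salt in line 2, 11 for line 2 in control and 1 for the salt effect difference of line 1, and quantile normalization 9 for salt in line 2 and 1 for that difference. The same difference was 1 with a mean of at least 5 FPKM, with voom and with robust variances. With only the compared groups the count was 2 for salt in line 1 and 7 for line 1 in control. The library sets were drawn from the within-group deviations of these same data, so a set term lowers the residual spread by construction. Over all genes, the calls of line 2 in control went from 2570 to 4230 with it. The fit with this term is among the 1878 checks and is no independent one. With the library set as a term the count of members was 16 for salt in line 1, 27 for line 2 in control and 16 for the salt effect difference of line 2. Within the upper set alone it was 0 for salt in line 2, 6 for line 2 in control, 6 for line 1 in salt, 9 for line 2 in salt and 1 for the difference of line 2. Within the lower set alone it was 0 for salt in line 1, 3 for salt in line 2, 6 for salt in WT, 0 for line 1 in control, 7 for line 2 in control, 9 for line 2 in salt, 0 for the difference of line 1 and 1 for that of line 2. Each set holds 9 libraries, 1 or 2 per group. A lone library is there assumed to vary like the other groups. Each such fit also has fewer libraries, and the cause of these changes was not tested. The other 168 of 221 alternative counts stayed within 1.5 times or equalled the main count. They include every alternative of line 2 against line 1 in control and in salt. There the count was 0 in the main fit and in each alternative, so these do not show stability of calls.

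With the replicate block 89 of the 97 calls remained, and the counts were 8, 16 and 10 for salt in line 1, line 2 and WT, 11 and 15 for line 1 and line 2 against WT in control, and 11 and 13 in salt. The numbers do not pair the libraries, since 10 of 27 same-numbered pairs correlated above 0.1 and not every library correlated best with its own number. Scaling moved the median of all genes by less than 0.1. For the other lists only leaving out 1 library was run. Called values that moved by over 1.5 times within 1 library set included LotjaGi1g1v0133700 in control (0.19 in line 1 and 0.15 in line 2 in the lower set), LotjaGi5g1v0263000 in line 2 in control (-0.31 in the upper set), LotjaGi5g1v0263100 for salt in line 2 (-0.51 in the upper set) and LotjaGi4g1v0429900 in line 2 in salt (0.12 in the upper set). The precision of members near 1 FPKM is limited by low read numbers. LotjaGi1g1v0768300, which passed the filter of a mean of at least 5 FPKM, held 9 to 126 reads in its WT control libraries. That range is wider than the range of the library totals, so it holds spread between replicates beside counting precision.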

Other observations

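Members named chloroplastic were set apart after the values were seen. Of 15 tested, limma called 2 up and 0 down with salt in line 1, 6 up and 0 down in line 2, and 0 up and 1 down in WT. The background over all genes tested was 4.19% up and 4.42% down in line 1, 4.24% and 4.42% in line 2, and 6.35% and 9.91% in WT. The 6 became 3 without line 2 control replicate 1 or 2 or line 2 salt replicate 3. The 2 of line 1 became 0 without line 1 control replicate 2 or line 1 salt replicate 1, 1 without line 1 control replicate 3 or line 1 salt replicate 3, and 4 without line 1 salt replicate 2. Among all 1412 tested genes named chloroplastic, the counts were 149 up and 53 down for line 1, 148 up and 52 down for line 2, and 133 up and 97 down for WT. The 6 that rose in line 2 were peroxiredoxin Q, both 2-Cys peroxiredoxins, the Cu-Zn superoxide dismutase, ascorbate peroxidase T and glutaredoxin-S14 (LotjaGi1g1v0483500). The call of glutaredoxin-S14 (adjusted p = 0.0483, limma) was lost in 11 of 19 alternatives (adjusted p between 0.00235 and 0.182, limma), among them without any 1 line 2 control library or line 2 salt replicate 1 or 3 (0.0789 to 0.182). In control the log2 differences of line 2 from WT lay between -0.39 and -0.11 for these 6, and only that of LotjaGi1g1v0735500 passed the threshold (adjusted p = 0.00764, limma). No difference between the salt effects of line 2 and WT passed it for any of them.

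The iron superoxide dismutase LotjaGi5g1v0257700 had 5.42, 9.31 and 4.60 FPKM in line 1, 11.3, 12.1 and 9.78 FPKM in line 2 and 4.32, 5.13 and 6 FPKM in WT in salt. Line 2 stood above both other genotypes. It was higher than WT there by 1.04 ± 0.32 (adjusted p = 0.0233, limma), a call lost in 5 of 19 alternatives (adjusted p between 0.00212 and 0.196, limma), among them without line 2 salt replicate 1 (0.0549) or 2 (0.0682) or WT salt replicate 1 (0.076) or 2 (0.0583). The difference between line 2 and line 1 in salt was not called.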
